A study of Mus musculus with 6 samples.

Results

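The untreated cultures are the 3 of 6 RNA sequencing libraries that were labelled as control, out of a study of neural stem cells from the mouse hippocampus. They were chosen by that label alone, as the 3 control columns of the deposited tables, and no comparison with the cadmium cultures was made. All 6 libraries came from wild type primary cells of the subgranular zone at passage 3. The cultures of the other group had received 0.8 μM cadmium chloride for 72 h, and the control cultures were grown without it over the same time. The replicates are labelled biological, with no word on animals or platings, and the spread between them may therefore be partly technical. Neither the age, sex and strain of the animals nor the culture medium is stated in the labels.

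The subgranular zone lies at the inner edge of the dentate gyrus and keeps neural stem cells into adult life. These cells share much of their gene expression with astrocytes, such as Gfap and Slc1a3, and also carry the progenitor genes Sox2 and Nes. Daughter cells that become neurons switch on Eomes, Neurod1 and Dcx, whereas oligodendrocytes form through a precursor that carries Olig2, Sox10 and Pdgfra. In culture with growth factors, cells taken from this zone divide and can form all 3 kinds of neural cell.

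Each library held between 40634758 and 41523231 counted reads. Of 25241 genes listed, 21131 had a read in at least 1 control culture and 4110 had none in any. Levels are given in FPKM, reads scaled by gene length and by the library's total, the per-length scale on which levels of different genes are set side by side, as far as the authors' gene lengths fit the transcripts present. A gene with an FPKM of at least 1 is described as detected, which held for 11160, 11149 and 11137 genes in control replicates 1, 2 and 3. The mean was 11149 ± 11.5 genes (SD, n = 3). A list member counts as detected where its mean over the 3 cultures reached 1 FPKM. Ranks were taken by mean FPKM among the 21131 genes with a read, with rank 1 the highest. A gene at 0 reads could still be present at up to 3 reads, which is 0.0722 to 0.0738 CPM (reads scaled to a common library total, with no length scaling) depending on the library, and this limit covers counting error only.

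The 4 genes that mark these cells were detected in every culture. Sox2 (Entrez 20674), a transcription factor of neural stem and progenitor cells, stood at 250, 233 and 250 FPKM in control replicates 1, 2 and 3, rank 229. Gfap (Entrez 14580), the intermediate filament of astrocytes and radial stem cells, stood at 349, 341 and 447 FPKM, rank 139. Nes (Entrez 18008), the intermediate filament of neural progenitors, stood at 58.7, 56.6 and 50.1 FPKM, rank 1263. Replicate 3 was highest for Gfap and lowest for Nes. Mki67 (Entrez 17345), a protein of dividing cells, stood at 49.2, 51.4 and 42.8 FPKM, rank 1491, and was also lowest in replicate 3. All 4 markers were thus present, which does not by itself fix the cells' identity, since Gfap is also a gene of astrocytes. In bulk RNA, fewer cells of a type and less RNA per cell cannot be told apart, so these levels do not give shares of cells.

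The scale mattered for these 4 ranks. By CPM, Gfap ranked 11, Sox2 167, Mki67 240 and Nes 394. The gene length implied by the deposited FPKM was 7420 bases for Gfap, whereas its longest protein-coding transcript in GENCODE release M21 has 2648 bases. For Sox2 the implied length was 2467 bases beside a transcript of 2057, for Nes 6596 beside 6126, for Mki67 10257 beside 10061 and for Pdgfra 9203 beside 6834. The FPKM of Gfap is thus low for a transcript of that length, and its rank by FPKM carries that limit.

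Genes of energy supply, translation and the cytoskeleton led the libraries, together with 2 genes of radial glia. COX1, a mitochondrially encoded subunit of cytochrome oxidase, ranked first at 9635, 10381 and 10668 FPKM in control replicates 1, 2 and 3. Ckb, the brain form of creatine kinase, followed at 6303, 6091 and 6640 FPKM. Eef1a1, the translation elongation factor, stood at 5040, 5043 and 5150 FPKM. The ranges of Eef1a1 and of CYTB, which followed it, overlapped, as did those of 12 of the 19 neighbouring pairs among the 20 most abundant genes. Next came CYTB, ND1, the actin-binding peptide gene Tmsb4x and ND2.

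Fabp7, a fatty acid binding protein of radial glia, ranked 8 at 2108, 1989 and 1960 FPKM. Vim, the intermediate filament vimentin of radial glia and immature astrocytes, ranked 9 at 1849, 1849 and 1955 FPKM. Their culture ranges did not overlap, with replicate 3 lowest for Fabp7 and highest for Vim. The other genes of the 20, in order, were ND5, Ppia, Dbi, Cfl1, Rpl41, Rplp1, Ftl1, Tpt1, Rps2, Atp5b and Fth1. They include Dbi, which encodes a ligand of GABA-A receptors that also binds acyl-CoA, and the iron storage genes Ftl1 and Fth1. Together the 20 genes held 14.7 ± 0.239% of all FPKM (SD, n = 3), and 5 of the 20 were mitochondrially encoded.

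**Figure D1:**
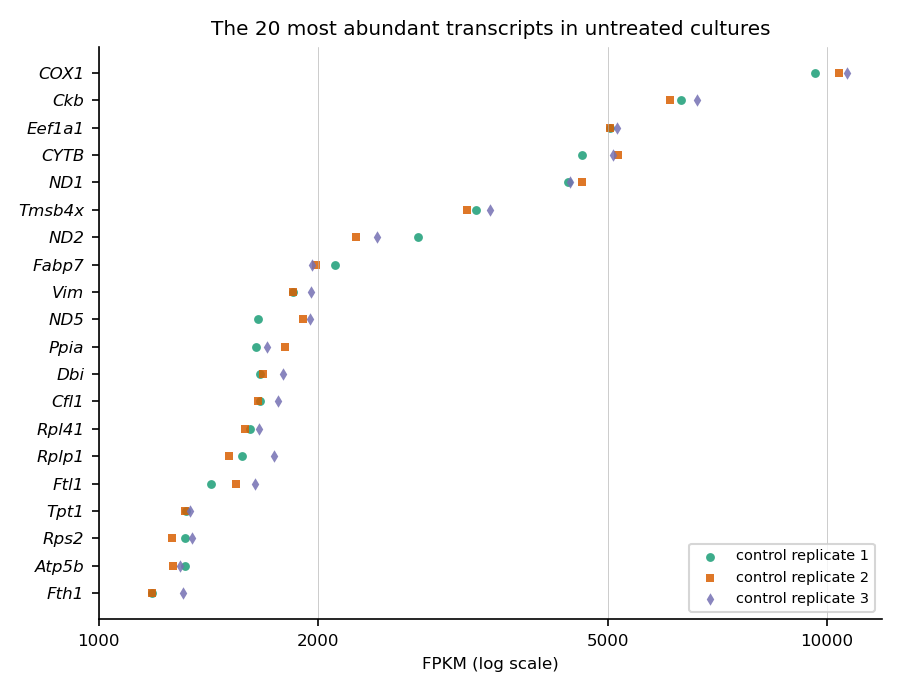
FPKM (horizontal log axis) of the 20 most abundant genes, 1 row a gene and 1 point a culture. COX1 lies near 10000 FPKM and Fth1 between 1182 and 1304, and most neighbouring genes overlap in range.

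Ribosomal protein genes, 83 in the table, held 11.5 ± 0.204% of FPKM and filled 27 of the 60 highest ranks. The list of abundant genes was stable, with 95 genes among the 100 highest of every culture. The number of genes that together held 50% of the counted reads was 1047, 1044 and 1004 in control replicates 1, 2 and 3. Of 17711 protein-coding genes, 10865 had a mean of at least 1 FPKM, against 297 of 7530 non-coding genes. Ptn, which encodes the secreted growth factor pleiotrophin, led the annotated growth factor genes at 1008, 912 and 939 FPKM, rank 34. Of 129 genes annotated as growth factors in the deposited table, 36 reached 1 FPKM. The metal-binding metallothioneins were also abundant without any added cadmium, with Mt1 at 428, 418 and 496 FPKM. Mt3, the brain form, stood at 490, 434 and 489 FPKM.

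Stem cell genes were expressed broadly. Of 23 radial stem cell genes, 21 reached 1 FPKM, with a median of 28.5 FPKM, above 88.4% of the genes with a read. After Fabp7 and Vim came Cd9, a membrane tetraspanin, at 345, 350 and 363 FPKM, and then Sox2. Id3, an inhibitor of basic helix-loop-helix factors that is induced by BMP signalling, stood at 199, 204 and 208 FPKM. Hopx, a marker of dentate radial stem cells, stood at 23.3, 23.9 and 25.8 FPKM. Lpar1, a receptor that marks adult dentate stem cells and precursors, was an exception at 0.0850, 0.0681 and 0.136 FPKM. The second exception, Tfap2c, had a mean of 0.00217 FPKM. All 16 genes linked to stem cell quiescence were detected, with a median of 16.5 FPKM. They were led by the secreted chaperone gene Clu (121, 121 and 135 FPKM), by Nfix, a nuclear factor I gene (66.7, 73.0 and 77.2 FPKM), by the cyclin-dependent kinase inhibitor gene Cdkn1b and by Lrig1, a negative regulator of EGF receptors.

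Astrocyte markers had the highest median of the identity lists, but not the highest sum. The summed level in control replicates 1, 2 and 3 was 3328, 3324 and 3845 FPKM for astrocyte markers and 5428, 5304 and 5418 FPKM for radial stem cell genes. Of 23 genes, 21 reached 1 FPKM and 12 reached 100, with a median of 102 FPKM, above 97.1% of the genes with a read. Apoe, the main lipid carrier made by astrocytes, stood at 816, 783 and 1006 FPKM, rank 44. Atp1b2, a sodium pump subunit of glia, stood at 323, 347 and 380 FPKM. Aldoc, the brain form of aldolase, stood at 228, 224 and 271 FPKM. For all 3 genes replicate 3 was highest. Genes of mature astrocytes were less even in level. Aqp4, the water channel of astrocyte endfeet, had 35.0, 33.1 and 41.4 FPKM and the glutamate transporter gene Slc1a2 had 30.4, 30.5 and 31.3 FPKM, while S100b had 2.64, 3.03 and 3.39 FPKM. The connexin gene Gjb6 averaged 0.179 FPKM.

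**Figure D2:**
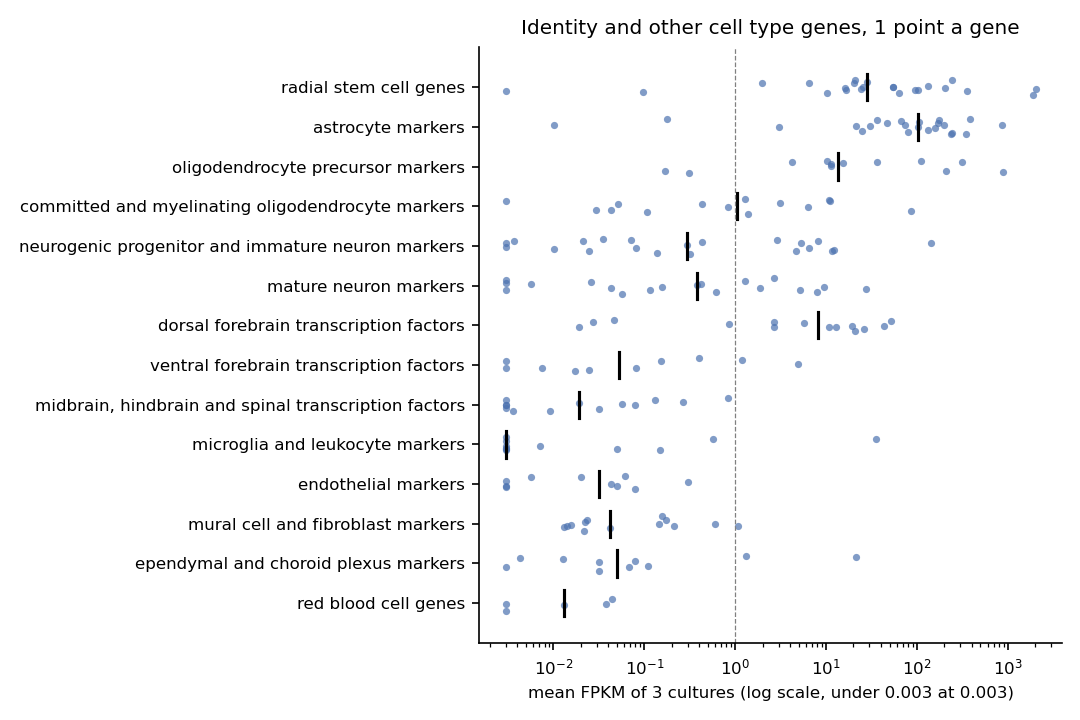
Mean FPKM over the 3 cultures (horizontal log axis) of every gene of 14 lists of identity and other cell types, 1 point a gene, with a bar at each list's median and a dashed line at 1 FPKM. Astrocyte markers (median 102 FPKM) and radial stem cell genes (median 28.5 FPKM) have the highest medians, and the lists of blood, vessel and immune cells lie below 1 FPKM apart from single genes.

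Early oligodendrocyte lineage genes were present beside the astrocyte genes, and genes of myelin were low. Olig1 and Olig2, basic helix-loop-helix factors of the oligodendrocyte lineage that progenitors can also express, were the most abundant of 1401 transcription factors annotated in the deposited table, of which 819 reached 1 FPKM. Olig1 stood at 884, 908 and 875 FPKM, rank 41. Olig2 stood at 301, 338 and 300 FPKM, rank 178. Next among transcription factors came Ybx1, a cold shock domain protein, at 287, 289 and 295 FPKM, and then Sox2. Of 12 oligodendrocyte precursor markers, 10 were detected, with a median of 13.4 FPKM. Ptprz1, a receptor phosphatase that binds pleiotrophin, stood at 215, 209 and 202 FPKM, and Sox8 at 106, 105 and 121 FPKM. More restricted precursor genes were lower, with the proteoglycan gene Cspg4 at 15.4 ± 0.490, Sox10 at 11.4 ± 1.30 and the PDGF receptor gene Pdgfra at 11.3 ± 0.606 FPKM (SD, n = 3).

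Of 14 markers of committed and myelinating oligodendrocytes, 7 were detected and the median was 1.06 FPKM. Cnp, an enzyme of early and mature oligodendrocytes, was far above the others at 77.3, 77.3 and 103 FPKM. Cldn11, a tight junction gene of myelin, averaged 11.1 FPKM. Gpr17, a receptor of committed precursors, stood at 9.73, 9.22 and 13.5 FPKM. Mbp, the myelin basic protein gene, stood at 0.427, 0.350 and 0.515 FPKM, and Mog, a late myelin gene, had 0 reads in all 3 cultures. Cnp and Gpr17 were highest in replicate 3.

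Neurogenic and immature neuron genes spanned a wide range of levels. Of 21 neurogenic progenitor and immature neuron markers, 8 were detected, with a median of 0.294 FPKM, above 39.6% of the genes with a read. Sox4, a factor of progenitors and young neurons, stood at 139, 133 and 157 FPKM. Sox11, its close relative, stood at 13.1, 12.7 and 11.1 FPKM. Tubb3, a neuronal tubulin gene, averaged 11.8 FPKM and Prox1, a factor of dentate granule cells, averaged 8.22 FPKM. The other genes detected were Elavl4 (6.44 FPKM), Igfbpl1 (5.28 FPKM), Elavl3 (4.73 FPKM) and Insm1 (2.92 FPKM), of which the Elavl genes encode RNA-binding proteins of neurons. The neuronal commitment genes Dcx, Neurod1 and Eomes lay below 0.5 FPKM in each culture. Dcx, a microtubule protein of migrating neurons, stood at 0.493, 0.397 and 0.421 FPKM. Neurod1 stood at 0.374, 0.251 and 0.328 FPKM and Eomes, the factor of intermediate progenitors, at 0.0667, 0.0718 and 0.0784 FPKM. Neurog1 had 0 reads in all 3 cultures.

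Of 19 mature neuron markers, 7 were detected, with a median of 0.380 FPKM. Map2, a microtubule protein of dendrites, was highest at 28.9, 27.1 and 27.4 FPKM. It was followed by the synaptic vesicle genes Syp (mean 9.49 FPKM) and Syn1 (7.88 FPKM) and by the glutamate receptor gene Gria1 (5.21 FPKM). The neuronal splicing factor Rbfox3, known as NeuN, averaged 0.0567 FPKM. Slc17a6 and Slc32a1, vesicular transporters of glutamate and of GABA, had 0 reads in all 3 cultures.

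Transcription factors that mark position along the brain were highest for the dorsal forebrain, from which the hippocampus develops. Of 14 dorsal forebrain factors in the table, 10 were detected, with a median of 8.22 FPKM. Lhx2, needed for the hippocampus to form, stood at 48.8, 52.1 and 53.5 FPKM. Nr2f1 stood at 44.9, 42.3 and 44.3 FPKM, and Emx2 at 21.7, 20.9 and 20.2 FPKM. Its relative Emx1, by contrast, averaged 0.0275 FPKM, and Lef1, the Wnt effector of the developing hippocampus, averaged 0.0467 FPKM. Of 10 ventral forebrain factors, 2 were detected. They were Gsx1, at 5.08, 5.85 and 3.96 FPKM, and Sp8, at 1.20 FPKM on average. Gsx2 averaged 0.405 and Six3 0.152 FPKM, and Dlx5 had 0 reads. None of 13 midbrain, hindbrain and spinal factors reached a mean of 1 FPKM. The highest were En2 (0.841 FPKM), Gbx2 (0.269 FPKM), Irx3 (0.130 FPKM) and Otx2 (0.0782 FPKM), and Pax5, Hoxa5, Hoxc4 and Hoxd3 had 0 reads in all 3 cultures. Of all 144 annotated homeobox genes, 31 reached 1 FPKM, and the highest was Dbx2 at 95.7 ± 3.67 FPKM (SD, n = 3).

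Markers of cells that a primary culture from brain tissue could carry were close to absent. Of 11 microglia and leukocyte markers, 1 reached 1 FPKM. Among the others the highest were Cd68 (0.563 FPKM), P2ry12 (0.148 FPKM) and Fcer1g (0.0499 FPKM). Ptprc, C1qa, C1qc, Itgam and Tyrobp, genes that define leukocytes or microglia, had 0 reads in all 3 cultures. None of 10 endothelial markers was detected. Kdr was highest at 0.307 FPKM, followed by Esam, Ocln and Pecam1 at 0.0791, 0.0612 and 0.0506 FPKM, while Cdh5 and Ly6c1 had 0 reads. Of 13 mural cell and fibroblast markers, 1 reached 1 FPKM, the smooth muscle actin gene Acta2 at 1.31, 0.918 and 0.986 FPKM, with Tagln, Rgs5 and Pdgfrb at 0.606, 0.213 and 0.173 FPKM.

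Among 10 ependymal and choroid plexus markers, Foxj1, the factor that drives the formation of motile cilia, stood apart at 21.6 ± 1.67 FPKM (SD, n = 3). Rarres2 averaged 1.33 FPKM. The other 8 were below 1 FPKM, led by Clic6, at 0.125, 0.109 and 0.0965 FPKM, and Otx2. Tmem212, a marker of ependymal cells, had 0 reads in all 3 cultures, and Ttr, the transthyretin gene of the choroid plexus, averaged 0.0682 FPKM. Of 5 red blood cell genes, Hba-a1, Hbb-bs and Hbb-bt had means between 0.0130 and 0.0437 FPKM, and Hba-a2 and Alas2 had 0 reads.

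Cell cycle genes were detected without exception. All 25 genes of G1 and replication reached 1 FPKM, with a median of 31.6 FPKM, above 89.5% of the genes with a read. All 25 genes of G2 and mitosis did so too, with a median of 47.8 FPKM, above 92.9%. Cdk4, the kinase of the cyclin D proteins, stood at 397, 395 and 427 FPKM. Pcna, the sliding clamp of DNA polymerase, stood at 234, 231 and 196 FPKM. Ccnd1, the gene of cyclin D1, stood at 210, 224 and 140 FPKM, and Rrm2, a ribonucleotide reductase subunit, at 139, 140 and 115 FPKM. Pcna, Ccnd1 and Rrm2 were lowest in replicate 3, and Cdk4 was highest there.

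The G2 and mitosis genes were closer between cultures. Ube2c, a ubiquitin-conjugating enzyme of the anaphase-promoting complex, stood at 174, 184 and 180 FPKM. Ccnb1, the gene of cyclin B1, stood at 138, 128 and 124 FPKM, and Top2a, the topoisomerase of mitotic chromosomes, at 118, 119 and 110 FPKM. Cdc20, an activator of the anaphase-promoting complex, averaged 116 ± 1.20 FPKM (SD, n = 3). All 11 cell cycle inhibitors were detected as well, with a median of 27.0 FPKM. Cdkn1a, the gene of the p53 target p21, stood at 131, 134 and 120 FPKM. Cdkn2c averaged 82.1 ± 1.91, Cdkn1b 59.7 ± 4.61 and Cdkn2d 48.8 ± 0.779 FPKM (SD, n = 3). The senescence-linked Cdkn2a stood at 28.3, 26.1 and 26.6 FPKM.

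Promoter sequences of these cell cycle genes are shown because E2F factors are known to drive replication genes at the start of S phase, and the CHR element (cell cycle genes homology region) is known to restrict many mitotic genes to G2 and mitosis. Windows of 250 bases before to 50 bases after the start site came from RefSeq on build GRCm38.p6, whereas the reads were placed on GRCm39 per the submitters' processing notes. Letters were searched on both strands, and 7 sets of letters were counted in all, chosen after the expression values had been seen, so the shares are a description. The E2F letters TTTCCCGC or TTTGGCGC were found for 8 of the 19 G1 and replication genes that had a window (42.1%), for 0 of 22 G2 and mitosis genes and for 1.80% of all 27025 genes with a window. Among the 8937 genes with a window and a mean of at least 1 FPKM, the share was 3.69%. The CHR letters TTTGAA were found for 16 of 22 G2 and mitosis genes (72.7%), for 2 of 19 G1 and replication genes, for 20.2% of all genes with a window and for 13.5% of the detected ones.

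Of the other sets, CCAAT was found for 19 of 22 G2 and mitosis genes, for 12 of 19 G1 and replication genes, for 12 of 16 radial stem cell genes, for 11 of 19 astrocyte markers and for 41.1% of all genes, so it was common outside the cell cycle lists too. TATAAA was found for 0 of 22 G2 and mitosis genes, for 2 of 19 G1 and replication genes, for 15.7% of all genes and for 7.90% of the detected ones. TTTCCCGC alone gave 4 of 19 G1 and replication genes, against 1.24% of all genes and 2.56% of the detected ones. TTTGGCGC alone gave 5 of 19, against 0.585% of all genes and 1.19% of the detected ones. A wider set that added TTTCGCGC and TTTGCCGC gave 8 of 19, against 2.61% of all genes and 5.02% of the detected ones. No set holds the whole of another, except that the E2F sets share words. In the 250 bases before the start alone, 6 of the 19 G1 and replication genes held the E2F letters. There, 8 of the 22 G2 and mitosis genes held the CHR letters. The share over all genes was not counted for this shorter stretch, so these counts only say which sequences could be printed. A match is a description of letters and not a sign of binding. The lines below give these 250 bases, from 5′ to 3′ on the gene's own strand, with the matched letters in capitals. Mcm6, a subunit of the replicative helicase (chr1:128359706-128359955, minus strand), was the only gene with 2 E2F matches there, starting 110 and 47 bases before the start site. Mki67 (chr7:135716380-135716629, minus strand) and Cdk1, the mitotic kinase (chr10:69352913-69353162, minus strand), each held 2 CHR matches, as did Top2a, whose sequence is not shown.
Mcm6: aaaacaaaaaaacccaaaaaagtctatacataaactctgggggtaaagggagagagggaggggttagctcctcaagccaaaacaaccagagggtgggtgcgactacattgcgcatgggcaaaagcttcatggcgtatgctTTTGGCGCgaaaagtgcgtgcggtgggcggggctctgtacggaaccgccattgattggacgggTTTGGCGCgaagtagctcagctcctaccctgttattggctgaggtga
Mki67: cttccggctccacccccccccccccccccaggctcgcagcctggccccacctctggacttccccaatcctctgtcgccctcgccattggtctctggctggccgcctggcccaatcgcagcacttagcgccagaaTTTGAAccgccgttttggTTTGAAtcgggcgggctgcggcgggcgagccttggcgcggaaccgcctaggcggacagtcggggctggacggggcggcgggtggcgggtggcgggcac
Cdk1: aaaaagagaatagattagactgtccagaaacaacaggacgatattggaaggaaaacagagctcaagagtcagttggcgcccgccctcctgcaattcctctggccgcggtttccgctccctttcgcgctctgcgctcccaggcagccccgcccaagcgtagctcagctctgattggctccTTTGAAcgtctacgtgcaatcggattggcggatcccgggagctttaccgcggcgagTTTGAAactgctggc

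The levels of these 3 genes were 35.4, 36.4 and 27.2 FPKM for Mcm6, 49.2, 51.4 and 42.8 FPKM for Mki67, and 40.2, 39.3 and 38.4 FPKM for Cdk1 in control replicates 1, 2 and 3. Replicate 3 was lowest for each, by the widest margin for Mcm6.

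The receptor lists differed in the share of members detected. Of all 17711 protein-coding genes, 10865 had a mean of at least 1 FPKM. Of 29 growth factor receptors, 20 were detected, with a median of 3.47 FPKM. Ddr1, a collagen receptor kinase, led at 53.6, 51.9 and 57.1 FPKM. Fgfr3, a receptor of fibroblast growth factors found in radial glia and astrocytes, stood at 45.0, 46.4 and 47.5 FPKM. Egfr, the receptor of epidermal growth factor on activated stem cells, stood at 33.3, 33.9 and 32.5 FPKM. These 3 genes differed little between cultures. Tyro3, a receptor of Gas6, averaged 39.3 FPKM, Ntrk2, the BDNF receptor, 30.9 FPKM, and Il6st, the shared receptor of the interleukin 6 family, 27.9 FPKM. Ntrk2 had more reads than Ddr1, a mean of 37659 per culture against 25891, so the lead of Ddr1 holds by FPKM only.

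Notch pathway genes were well represented, with 14 of 18 detected and a median of 14.1 FPKM. Notch1, the receptor that maintains neural stem cells, stood at 51.1, 51.8 and 50.4 FPKM. Lfng, a glycosyltransferase that modifies Notch receptors, was highest at 121, 126 and 112 FPKM. Of the targets, Hey1 averaged 40.7 ± 3.05 FPKM (SD, n = 3) and Hes5 stood at 27.6, 25.1 and 32.7 FPKM. The ligand-family gene Dll3 averaged 33.1 FPKM and Nrarp, a feedback inhibitor, 28.2 FPKM. Hey1, Hes5, Dll3 and Nrarp were highest in replicate 3, whereas the target gene Hes1 was lowest there at 17.2, 18.7 and 13.1 FPKM.

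Among BMP and TGF-beta receptors, 9 of 10 were detected and Bmpr1a led at 34.3, 32.2 and 31.2 FPKM. Bmpr2 averaged 14.3, Acvr1b 9.50, Tgfbr1 8.20, Bmpr1b 6.54 and Acvr1 4.53 FPKM. Of 17 Wnt receptors and co-receptors, 16 were detected. Fzd9, a frizzled gene of the hippocampus, stood at 58.1, 61.7 and 61.1 FPKM, above Ryk (24.1 FPKM), Fzd3 (15.9 FPKM), Fzd1 (11.2 FPKM), Fzd2 (11.0 FPKM) and Fzd10 (10.4 FPKM).

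Hedgehog receptors were present, while Ptch1 and Gli1, both known to be induced by hedgehog signalling, differed widely in level. Gas1, a co-receptor, stood at 45.3, 53.1 and 43.3 FPKM. Smo, the signal transducer, stood at 33.6, 33.3 and 32.3 FPKM, and Ptch1, the receptor and itself a target gene, at 23.8, 21.7 and 24.6 FPKM. Boc averaged 3.72, Gli3 1.84 and Gli2 1.13 FPKM. The target gene Gli1 stood at 0.0269, 0.0658 and 0.0395 FPKM.

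Among lipid, purine, chemokine and endothelin receptors and their relatives, 20 of 28 were detected. Ednrb, the endothelin receptor of astrocytes and radial glia, stood at 232, 227 and 268 FPKM, rank 230, the highest of any receptor in these lists. Adgrg1, an adhesion receptor of neural progenitors, stood at 137, 142 and 155 FPKM and F2r, the thrombin receptor, at 93.7, 93.7 and 96.2 FPKM. Gprc5b averaged 63.0 FPKM, S1pr1, a receptor of sphingosine 1-phosphate, 34.6 FPKM, and Adora1, an adenosine receptor, 30.7 FPKM. Of 36 receptors for neurotransmitters and peptides, 19 were detected, with a median of 1.37 FPKM. Grm5, a metabotropic glutamate receptor that young astrocytes carry, stood at 26.9, 24.4 and 19.8 FPKM. Gabbr1 averaged 18.6, the nicotinic receptor gene Chrna4 16.9, Gria2 9.65, Gria3 8.46 and Gabrg1 5.92 FPKM. Grm7 and Oprk1 had 0 reads in all 3 cultures.

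Of 30 nuclear receptors, 16 were detected, with Nr2f1 highest. Thra, the alpha form of the thyroid hormone receptor, stood at 34.1, 34.8 and 38.9 FPKM, whereas Thrb, the beta form, averaged 0.427 FPKM. Ppard averaged 18.5, Nr1h2 16.8, Rxrb 16.6 and Nr1d1 11.2 FPKM. The glucocorticoid receptor gene Nr3c1 averaged 8.89 FPKM and the oestrogen receptor gene Esr1 0.00554 FPKM.

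**Figure D3:**
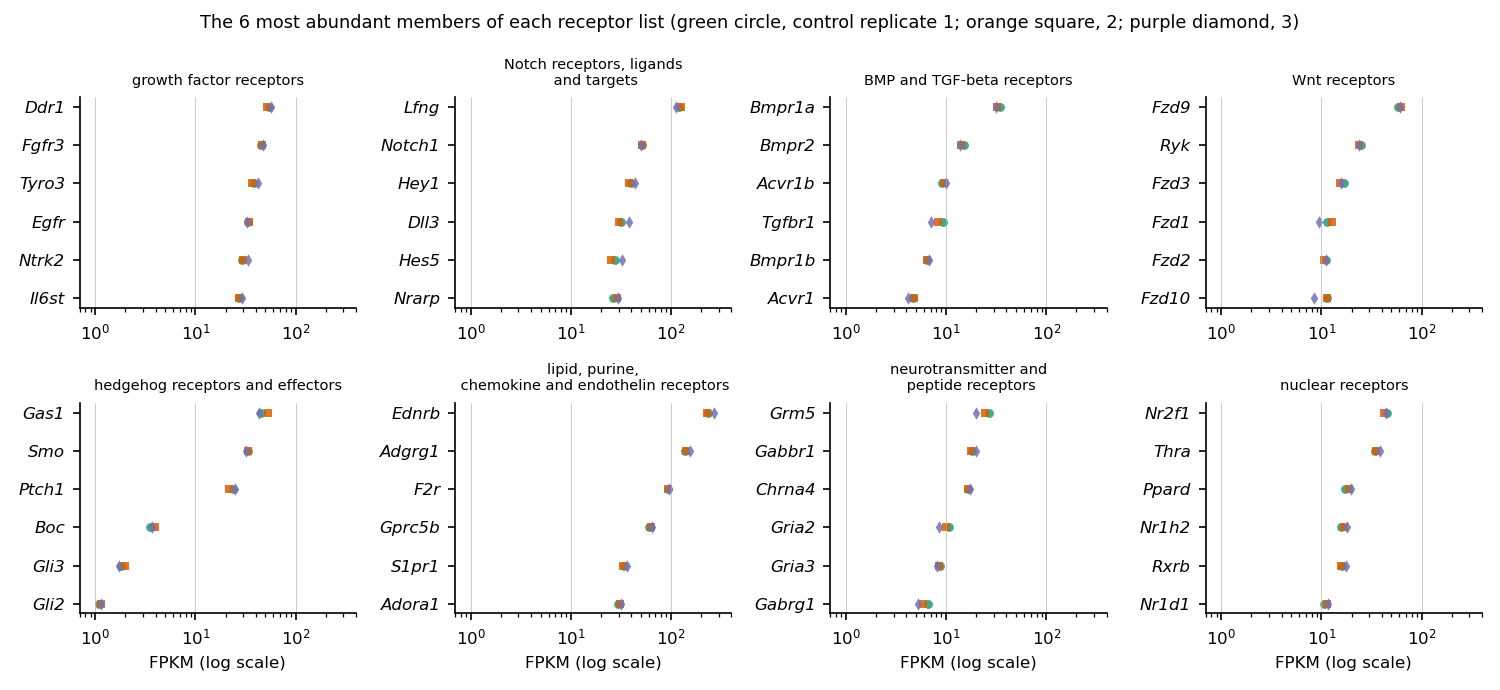
FPKM in each culture (horizontal log axis) of the 6 most abundant genes of 8 receptor lists, 1 point a culture. Ednrb lies highest, between 227 and 268 FPKM, and Gli2 lowest, between 1.09 and 1.14 FPKM.

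The cultures lay close together. The biological coefficient of variation, the spread between cultures beyond counting error as estimated by edgeR over 13805 genes, was 6.57%, and the median coefficient of variation (CV) of a gene was 6.15%. The share of the spread that counting error could give fell with depth. Counting error is given here as the CV expected from the mean read count. A median CV from so few cultures tends to fall below the expected CV, so the excess over counting error may be understated. Genes with 10 to 100 reads had a median CV of 24.4%, where counting error alone gives 18.6%. Genes with 100 to 1000 reads had 7.80%, where it gives 4.72%. Genes with 1000 to 10000 reads had 4.50%, where it gives 2.02%, and genes with 10000 reads or more had 3.82%, where it gives 0.814%.

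**Figure D4:**
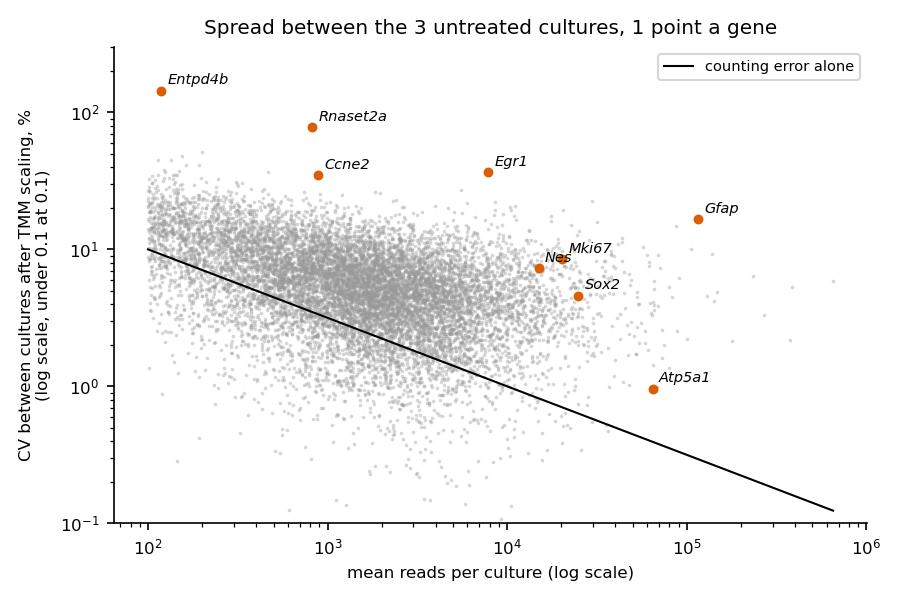
CV between the 3 cultures (vertical log axis, percent) against mean reads per culture (horizontal log axis), 1 point a gene with a mean of at least 100 reads, with a line for counting error alone. The spread narrows with depth, and Entpd4b, Rnaset2a, Egr1 and Ccne2 lie above the genes of similar count.

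Of 11658 genes with a mean of at least 100 reads, 208 (1.78%) differed by at least 1.5-fold in CPM between the highest and the lowest culture, and 16 by at least 2-fold. Replicate 3 was the culture apart from the other 2 in 125 of the 208 genes, below them in 97 and above them in 28. Replicate 1 was apart in 44 genes and replicate 2 in 39. Without replicate 3 the biological coefficient of variation was 4.23% and 42 genes were at least 1.5-fold apart. Without replicate 1 the number was 106 and without replicate 2 it was 117, and a range over fewer cultures is smaller by construction.

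Replicate 3 had lower levels of most G1 and replication genes and higher levels of most astrocyte and committed oligodendrocyte markers. Its difference from the mean of replicates 1 and 2 on the log2(CPM + 1) scale had a median of -0.02 over all 11658 genes. Over the 25 G1 and replication genes the median difference was -0.28. Replicate 3 was lowest in 22 of them, whereas it was lowest in 45.6% of all genes. The largest differences were those of Ccne2, the gene of cyclin E2 (-0.89), Ccnd1 (-0.63), and Cdt1, a replication licensing factor (-0.50). The 3 genes of the list in which replicate 3 was not lower were the G1 genes Cdk4 (0.11), Ccnd3 (0.06) and Cdk6 (0.01). Over the 25 G2 and mitosis genes the median difference was -0.12, and replicate 3 was lowest in 19.

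Of the 23 astrocyte markers, 21 had a mean of at least 100 reads, and over these the median difference was 0.15. Replicate 3 was highest in 18 of the 21, whereas it was highest in 33.4% of all genes. Ttyh1, a membrane protein of glia, differed by 0.39, Gfap by 0.37 and Apoe by 0.33. Slc1a3, the glutamate transporter shared with radial stem cells, differed by -0.17. Of the committed oligodendrocyte markers, 8 had enough reads, with a median difference of 0.23 and replicate 3 highest in 7, led by Gpr17 (0.50) and Cnp (0.41). For the oligodendrocyte precursor list the median difference was 0.03 over 10 genes, with replicate 3 highest in 5 and lowest in 4. The median difference was 0.12 for the Notch list, 0.09 for dorsal forebrain factors, 0.05 for radial stem cell genes and -0.01 for growth factor receptors. With 3 cultures of 1 group these differences were not tested, and whether they reflect cell composition, growth state or handling was not tested.

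**Figure D5:**
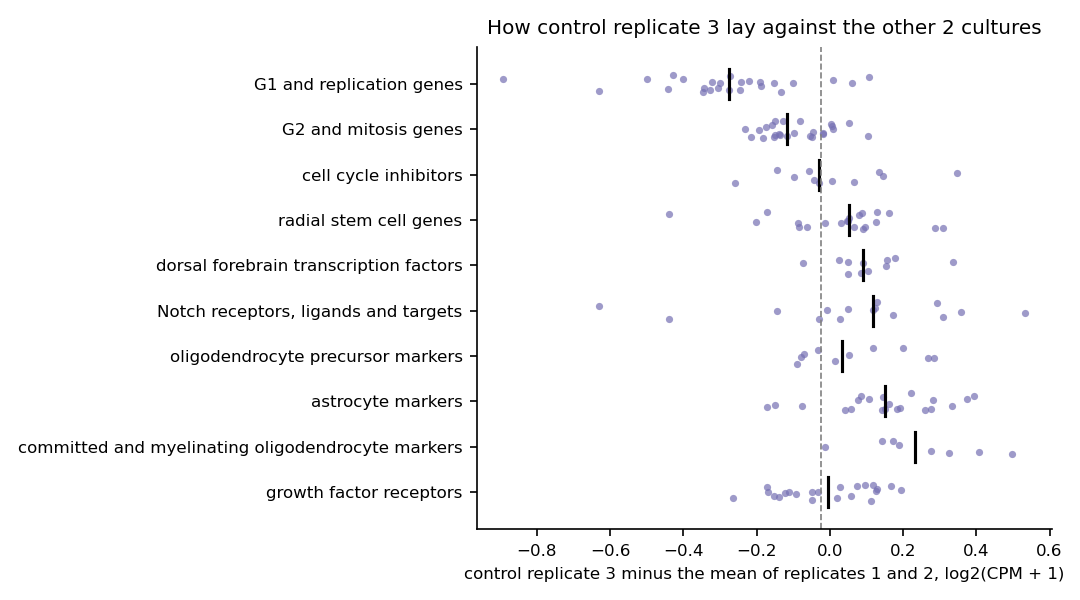
Difference of control replicate 3 from the mean of replicates 1 and 2 on the log2(CPM + 1) scale (horizontal axis), 1 point a gene with a mean of at least 100 reads, with a bar at each list's median and a dashed line at the median of all genes (-0.02). G1 and replication genes lie to the left (median -0.28) and astrocyte markers to the right (0.15).

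The genes with the widest range were taken among those with at least 100 reads in the highest culture, a looser filter than the mean of 100 used for the 208 genes, and it favours genes that are high in 1 culture only. They are given as values. The first 3 were members of near-identical pairs. Entpd4b, which encodes a nucleotide phosphatase and has a close copy in Entpd4, had 16, 317 and 23 reads in control replicates 1, 2 and 3, a 19.4-fold range in CPM. Rnaset2a, a ribonuclease gene with a copy in Rnaset2b, had 421, 1578 and 468 reads, a 3.67-fold range. Eif3j2, a copy of the translation initiation gene Eif3j1, had 208, 72 and 186 reads, a 2.95-fold range. Replicate 2 was the culture apart in each. Of the copies, Rnaset2b (506, 518 and 506 reads) and Eif3j1 (1945, 2159 and 1784 reads) differed less between cultures. Entpd4 had 3, 2 and 4 reads, too few to compare cultures. No label says how reads were divided between such copies, so the counts of these pairs are uncertain. Summed over both members, the Entpd4 pair stood at 0.468, 7.68 and 0.650 CPM in control replicates 1, 2 and 3. The Rnaset2 pair stood at 22.8, 50.5 and 23.5 CPM and the Eif3j pair at 53.0, 53.7 and 47.5 CPM. Replicate 2 thus stayed apart in the sums of the Entpd4 and Rnaset2 pairs. The cause was not tested.

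The other 9 of the 12 genes with the widest range spanned 2.14-fold to 2.77-fold. Depdc7, the sialomucin gene Podxl, the protease-activated receptor gene F2rl1 and Tigd3 were lowest in replicate 3, with Podxl at 161, 119 and 61 reads and F2rl1 at 116, 120 and 46 reads. Ccne2, at 1150, 946 and 549 reads, was lowest there as well. Crybb1, a crystallin gene, was highest there at 52, 86 and 119 reads. The activity-induced genes Arc and Egr3 were highest in replicate 2, at 54, 110 and 50 reads and 94, 121 and 55 reads. Zfp934, a zinc finger gene, was lowest in replicate 2 at 207, 99 and 142 reads.

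The 12 genes with the smallest CV by CPM were Atp5a1, a subunit of ATP synthase, Rab6a, a GTPase of the Golgi, Pcca, Wdr82, Pi4kb, the condensin gene Ncaph2, Ttf1, the deubiquitinase gene Usp5, Atf7ip, the microtubule gene Clasp1, Ddx47 and the citrate carrier gene Slc25a1. Atp5a1 stood at 1564, 1564 and 1564 CPM in control replicates 1, 2 and 3, a CV of 0.0138%. Counting error alone gives 0.394% at that depth, and with TMM scaling the CV was 0.965%, so this order depends on the scaling and does not rank how constant these genes are. By CPM all 12 had a CV below counting error, but they were picked for the smallest CV, so this follows from the choice.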

How the data were processed

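The authors deposited whole-number counts of reads per gene and FPKM values for the same genes. Per the submitters' processing notes, the build was GRCm39 and the tools included HTSeq 0.11.2, HISAT2 2.1.0, DESeq2 1.22.2 and fastp 0.20.1, with no step named for each. Strand setting and gene annotation are not given in the sources used here, so reads of overlapping or antisense genes cannot be told apart. Each deposited FPKM value equalled the count divided by library total and 1 length per gene, within a relative deviation of 1.93e-10, so FPKM is relative to the library and adds no second measurement. Only the 3 control columns entered the analysis, and no test between groups was made.

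Genes were ranked by mean FPKM. CPM was computed by library total. The biological coefficient of variation came from edgeR 4.0.16 in R 4.3.3 (TMM, intercept only, filterByExpr with a minimum count of 10), checked on simulated data. Named were Nes, Sox2, Gfap and Mki67, the 20 highest genes, the 4 highest of each list (6 for receptors) with any member at 0 reads, and the 12 most and 12 least variable genes with at least 100 reads in the highest or lowest culture. Genes outside this rule were chosen after their values were seen: other list members used to show a contrast, metallothioneins, growth factor and transcription factor annotations, copies, promoters, lengths and the replicate 3 difference. The members and lists were chosen with earlier results of these data known. Of 446 list genes, 431 are in the table and the others were not analysed here. Precision at low counts is limited by counting error. Some genes that the naming rule selects are not reported here.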

Additional observations from a re-analysis of the deposited data

How the results depend on the processing

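No paired analysis was possible because no test between groups was made. With TMM scaling the median offset of replicate 3 from the mean of all cultures changed sign for some lists. It went from -0.00416 to 0.0110 for growth factor receptors and from -0.00490 to 0.0102 for neurogenic genes. For mature neuron markers it went from -0.000358 to 0.0149. The order of some levels also depended on the scale. Mki67 ranked above Nes by CPM and below it by FPKM. The median of the G1 and replication list lay above those of the radial stem and oligodendrocyte precursor lists by FPKM and below both by CPM. The number of genes detected was 12080 at 0.5 FPKM and 7776 at 5 FPKM. The share of the 20 most abundant genes was 10.7% of FPKM without mitochondrially encoded genes and, for the 20 genes with the most reads, a partly different set, 8.68% of counts. The 20 genes named by FPKM held 7.22% of counts. Ranked by CPM, the list medians lay above 91.3% (radial stem), 98.6% (astrocyte), 89.6% (oligodendrocyte precursor), 49.7% (committed oligodendrocyte), 38.4% (neurogenic) and 85.4% (G1 and replication) of genes. Among all listed genes they lay above 90.3%, 97.6%, 81.5%, 56.1%, 49.4% and 91.2% in the same order, with 50.7% for mature neuron and 94.1% for G2 and mitosis genes. The biological coefficient of variation was 6.66% with library totals only and 6.40% for means of at least 100 reads. The median CV was 5.34% for means of at least 100 reads and 11.1% from 1 read up. At a mean of at least 1000 reads, 14 genes were at least 1.5-fold apart. Leaving out each culture in turn gave a biological coefficient of variation of 4.23% to 7.60%, a median CV of 3.81% to 5.91% and 42 to 117 genes apart, each lowest without replicate 3. The cause was not tested. The replicate 3 differences of the replication, mitosis, astrocyte and committed oligodendrocyte lists kept their sign with TMM scaling. They did so with log2(FPKM + 0.1) too, which is no separate check. FPKM divides CPM by 1 length per gene, so differences between cultures hardly change.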

Other observations

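Mitochondrially encoded genes were very unequal. COX1 had 604899, 665955 and 684212 reads in control replicates 1, 2 and 3, whereas COX3, a subunit of the same enzyme, had 1029, 1285 and 1147 reads. ATP6 had 1423, 877 and 1285 reads and COX2 had 3271, 2320 and 2441 reads. Nuclear copies of mitochondrial sequence exist, and their part in these counts was not tested. The ranks given above for mitochondrially encoded genes, and the shares of FPKM that include them, carry that limit. Gapdh, a glycolytic gene with many pseudogenes, stood at 79.6, 85.5 and 84.2 FPKM.

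Female and male transcripts occurred in every culture. Xist, the RNA of the inactive X chromosome, had 22642, 22968 and 15818 reads in control replicates 1, 2 and 3. The Y-linked genes Ddx3y and Kdm5d had 462, 410 and 413 reads and 529, 474 and 492 reads. Eif2s3y had 449, 478 and 446 reads and Uty had 278, 251 and 270 reads. No label says whether cells of several animals were pooled.

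Some genes induced by growth factor signalling were highest in replicate 2, which was highest in 32.8% of all genes with a mean of at least 100 reads. Spry2, Junb and Ier2 were also looked at and are not reported here. Egr1 had 6436, 11185 and 5776 reads and Egr2 had 333, 664 and 398 reads. The feedback inhibitor genes Spry4 (1781, 2351 and 1361 reads), Spry1 (1881, 2510 and 1474 reads) and Dusp6 (2303, 3013 and 1870 reads) had the same order of cultures as Egr1. Fos, an immediate early gene, was closer, at 2293, 2610 and 2503 reads. The nuclear RNA Malat1 was lowest in replicate 3, at 6312, 6419 and 3758 reads. These genes were chosen after their values were seen.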
